A study of Mus musculus with 8 samples.

Results

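The 10 genes described here encode the core proteins of the inflammasomes and of pyroptosis. They comprise 6 sensors (Nlrp3, Nlrc4, Naip2, Naip5, Naip6 and Nlrp1b), the adaptor Pycard, the inflammatory caspases Casp1 and Casp4, and the pore-forming gasdermin Gsdmd. They were chosen by name from the 43346 genes of the count table, and all 10 were among the 12461 genes with enough counts to be tested. Polyadenylated RNA of mouse macrophages had been sequenced in 8 libraries, each from cells at 0 h (unstimulated) or after 3 h with lipopolysaccharide (LPS), the Gram-negative cell wall component that TLR4 senses. Bone marrow-derived macrophages (BMDM), which were grown in L929-conditioned medium, had 2 unstimulated and 2 LPS libraries. RAW 264.7 (RAW), a virus-transformed mouse macrophage-like line grown in DMEM with serum, had 1 library per state. The cell type labelled hMPDM also had 1 library per state, and neither the abbreviation nor its culture is explained in the sources used here. No strain, sex, age or LPS dose is given there for any group, and no group carries a named genotype.

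Inflammasomes are cytosolic complexes in which a sensor, once it meets its trigger, recruits and activates caspase-1, often through the adaptor ASC, the product of Pycard. Active caspase-1 cuts the precursors of the cytokines IL-1beta and IL-18 and also gasdermin D, whose released fragment opens pores in the plasma membrane and ends in the lytic death called pyroptosis. Casp4, the mouse gene for caspase-11, acts in a noncanonical branch in which the caspase binds LPS in the cytosol and cuts gasdermin D directly. In macrophages, LPS acting through TLR4 is known to prime the system by raising the transcripts of some components before a further signal triggers assembly.

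Library totals lay between 3116434 counts (RAW at rest) and 19307312 counts (a resting BMDM library). Levels are given as CPM, counts scaled to library size after TMM, edgeR's correction for differences in library composition. A gene with 0 counts may still have had a level of up to 3 counts, equal to 0.145 CPM where sequencing was deepest and to 0.785 CPM where it was shallowest. All 8 macrophage markers checked were present in each library, with a summed level of 14426 to 19109 CPM. The 8 neutrophil markers summed to between 58.8 and 96.3 CPM in BMDM, to 17.4 and 28.1 CPM in hMPDM and to 4.45 and 4.49 CPM in RAW, with Ly6g at 0 in all but 1 library (0.0484 CPM), and their part in the differences between cell types was not tested. Marker lists of the other cell types summed to at most 2.93 CPM. A set of 16 genes was picked, with the values known, as close to absent from resting hMPDM. These genes reached 10.8% of the BMDM LPS level in the hMPDM LPS library, against 1.35% at rest. The choice by resting values made the figure at rest low, so this contrast cannot show that the LPS library differs. The same share is not given for the other libraries. Whether the BMDM replicates came from separate mice or cultures is not stated. The spread that the p-values rest on is therefore that between these libraries, drawn for each gene towards that of all genes tested, and it may be technical.

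In BMDM, 8 of the 10 genes were higher after LPS, 1 (Nlrp1b) was lower and 1 (Pycard) was not called. Over all genes tested, 31.7% were called higher and 31.1% lower. With library size scaling 5 of the 10 were higher and 2 lower (Pycard joined Nlrp1b), with the DESeq2 test 5 and 1, and with a set coefficient of variation of 10% 6 and 1. The median log2 difference was 0.62 over the 10 genes and -0.02 over all genes tested. Calls are those of edgeR's quasi-likelihood test at a Benjamini-Hochberg adjusted p under 0.05, and an SE beside a log2 value is its size divided by the square root of the test's F statistic. Scaling to library size in place of TMM shifts every BMDM LPS response by -0.37 on the log2 scale. The differences of RAW from BMDM shift by 0.20 at rest and 0.47 after LPS, and those of hMPDM by 0.02 or less.

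**Figure D1:**
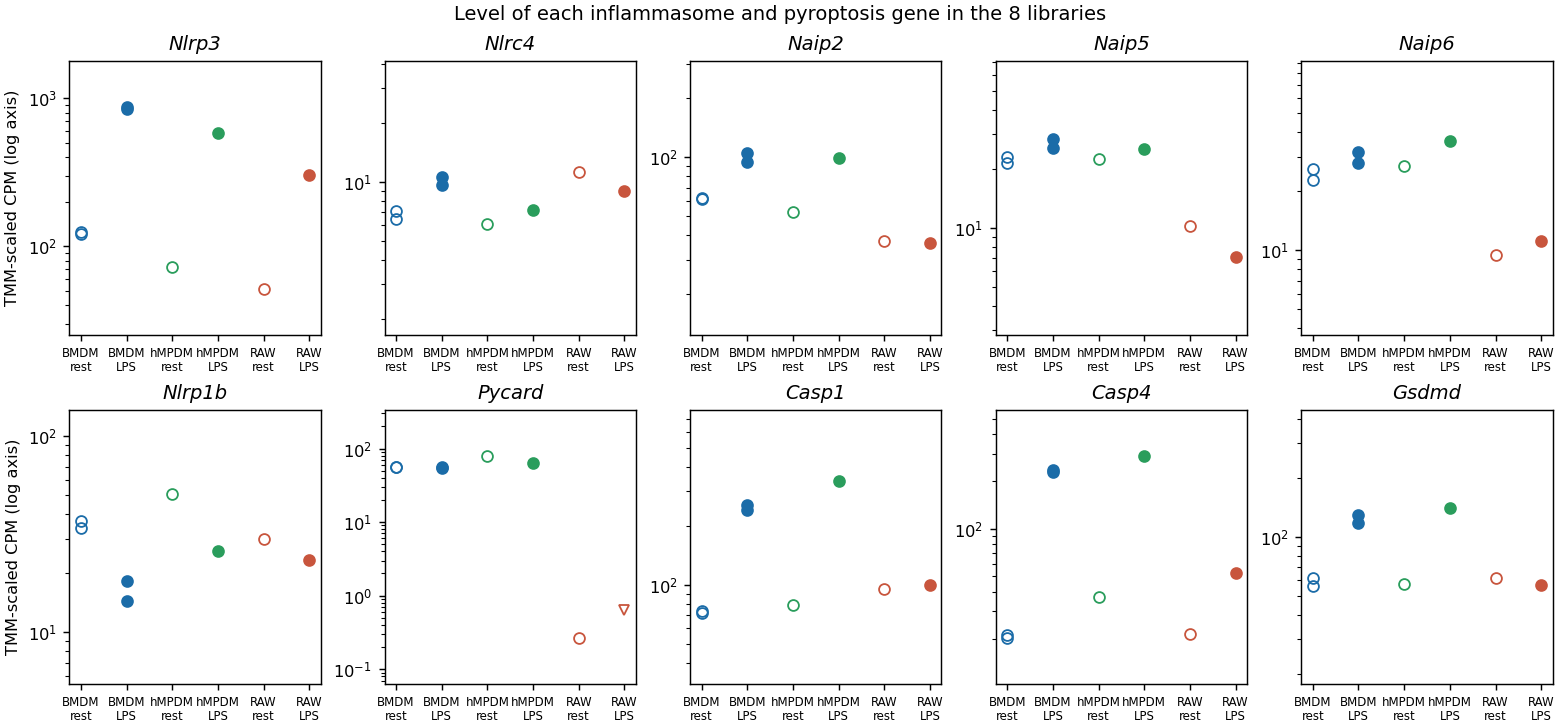
TMM-scaled CPM (log axis, own range per gene) of each gene in the 8 libraries, with open circles for unstimulated and filled circles for LPS libraries, and a triangle at the level of 3 counts where the count was 0. Nlrp3 lies above its resting level after LPS in all 3 cell types, while Pycard is at 0.262 CPM or at 0 in RAW against 54.6 CPM or more elsewhere.

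Nlrp3, the sensor that responds to potassium efflux and many other disturbances of the cell, had the largest rise among the sensors. Its level was 126 and 122 CPM in the unstimulated BMDM libraries and 841 and 875 CPM in the LPS libraries. It was 72.1 CPM in hMPDM at rest and 579 CPM with LPS, and 51.3 CPM in RAW at rest and 301 CPM with LPS. Every LPS library was thus above every resting library, whatever the cell type. The BMDM rise was 6.94-fold (log2 2.80, SE 0.04, edgeR quasi-likelihood adjusted p = 3.08e-31). With 1 library per state, the hMPDM and RAW responses have no test. Their ratios of LPS to resting level were 8.02 in hMPDM (95% exact counting interval 7.49 to 8.60) and 5.87 in RAW (5.05 to 6.85). These intervals cover counting error only.

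Nlrc4 and the NAIPs form a shared complex, in which NAIP2 binds the inner rod of bacterial type III secretion systems, NAIP5 and NAIP6 bind flagellin, and NLRC4 is the partner that recruits caspase-1. Naip2 was the most abundant of these sensors in CPM, at 62.3 and 61.1 CPM in resting BMDM and 105.0 and 94.6 CPM with LPS, and the groups did not overlap. It rose 1.60-fold (log2 0.68, SE 0.06, edgeR adjusted p = 6.65e-12). In hMPDM it stood at 52.3 and 99.1 CPM at rest and after LPS, and in RAW at 37.4 and 36.6 CPM. Nlrc4 was the least abundant, with 6.46 and 7.07 CPM in resting BMDM and 10.6 and 9.65 CPM with LPS, 6.07 and 7.20 CPM in hMPDM, and 11.3 and 8.99 CPM in RAW. Its BMDM rise of 1.47-fold (log2 0.55, SE 0.14, edgeR adjusted p = 0.00102) was lost with library size scaling, where it was 0.19, and with the DESeq2 test. RAW at rest was the library with the highest Nlrc4 level, but on 43 counts, and the first BMDM LPS library, with 70 counts, was close to it.

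Naip5 and Naip6 moved little with LPS, and their direction depends on the scaling. Naip5 was at 22.8 and 21.5 CPM in resting BMDM and at 25.5 and 28.3 CPM with LPS, and at 22.3 and 25.3 CPM in hMPDM. In RAW it was lower, at 10.2 CPM at rest and 7.06 CPM with LPS. Naip6 was also lowest in RAW, with 26.1 and 22.9 CPM in resting BMDM, 31.9 and 27.8 CPM with LPS, 27.0 and 36.2 CPM in hMPDM and 9.42 and 11.1 CPM in RAW. The BMDM calls for Naip5 (log2 0.31, SE 0.08, edgeR adjusted p = 0.00249) and Naip6 (log2 0.26, SE 0.09, edgeR adjusted p = 0.00992) turned to -0.060 and -0.10 with library size scaling, and neither of those passed the test. Both calls also ended with the DESeq2 test and with a set coefficient of variation of 10%. Leaving out the second LPS library ended the call of Naip5, and leaving out the first LPS or the second resting library ended that of Naip6.

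The NAIP genes are recent copies of each other in 1 cluster on chromosome 13, and this limits how far their counts can be told apart. Naip2 lies at chr13:100144063-100202092, Naip5 at chr13:100211739-100246323 and Naip6 at chr13:100281121-100317674, all on the minus strand (mm10). Of all 50-base windows of the annotated transcripts, 50 bases being the read length, 36.9% of those of Naip5 also occur in transcripts of another gene, most often Naip6. The share was 21.5% for Naip6 and 19.1% for Naip2. How reads that match several genes were counted is not given in the sources used here, so the split among these 3 genes is uncertain. The last 100 bases before the RefSeq starts of Naip2 and Naip5 are shown to let their likeness be seen. They are those of Naip2 (chr13:100202123-100202222, minus strand) and Naip5 (chr13:100247337-100247436, minus strand), 5′ to 3′ in build GRCm38.p6 from RefSeq. The promoter of Naip6 was not compared, and no unrelated promoters were aligned as a background. Capitals mark runs of at least 12 identical bases in the alignment.
Naip2: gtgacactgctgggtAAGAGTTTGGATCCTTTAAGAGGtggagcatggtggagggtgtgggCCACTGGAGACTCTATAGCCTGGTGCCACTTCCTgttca
Naip5: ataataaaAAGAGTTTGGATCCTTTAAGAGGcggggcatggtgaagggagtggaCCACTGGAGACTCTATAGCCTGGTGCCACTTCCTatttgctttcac
Of 107 alignment columns, 82 were identical (76.6%), and the longest shared run, next to the start, had 34 bases.

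Nlrp1b, a sensor that is activated when a bacterial protease such as anthrax lethal factor cuts it or when the peptidases DPP8 and DPP9 are inhibited, was the only one of the 10 genes called lower in BMDM. It stood at 37.2 and 34.2 CPM in the resting libraries and at 14.5 and 18.3 CPM in the LPS libraries, so the groups did not overlap. The decrease was 2.09-fold (log2 -1.07, SE 0.09, edgeR adjusted p = 2.61e-11). In hMPDM it stood at 51.1 CPM at rest and 26.0 CPM with LPS, a ratio of 0.508 with a counting interval of 0.416 to 0.616. In RAW it stood at 30.1 CPM and 23.3 CPM, a ratio of 0.775 whose interval (0.591 to 1.02) includes 1. The lowest value among the 8 libraries was in an LPS-treated BMDM library.

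Pycard encodes ASC, the adaptor through which pyrin-domain sensors such as NLRP3 reach caspase-1, and RAW cells are known in the field for lacking it. Its level did not differ detectably with LPS in BMDM, with 56.3 and 56.1 CPM in the resting and 56.2 and 54.6 CPM in the LPS libraries (log2 -0.02, SE 0.06, edgeR adjusted p = 0.748), although with library size scaling the difference was -0.39 and was called lower (adjusted p = 4.12e-07). In hMPDM the level was 79.5 CPM at rest and 63.9 CPM with LPS, a ratio of 0.804 (counting interval 0.706 to 0.913). In RAW, 1 read was counted at rest and 0 after LPS. Both hMPDM values lie above all BMDM values, and both RAW values lie far below every other library.

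At rest, the summed Pycard counts were 2099 in the 2 BMDM libraries against 1 in RAW, a ratio of scaled levels of 215 with a counting interval of 38.5 to 8484. After LPS they were 1063 against 0, which makes RAW at least 85.9-fold lower when set against 3 counts. The untested ratio of hMPDM to RAW was 304 at rest (54.5 to 12013), and Pycard was the only 1 of the 10 genes to differ at least 4-fold there, against 4.27% of all genes higher and 2.84% lower. A comparison of cultures by bulk RNA cannot tell fewer cells with the transcript from less transcript per cell. The gene lies at chr7:127992103-127993867 on the minus strand (mm10). A gene model on the opposite strand, Gm45205, overlaps 485 bases of it, and whether counting used the strand is not given in the sources used here. Of the 29 other tested genes whose spans lie within 500000 bases of Pycard, 3 were called higher and 8 lower in RAW at rest. The other 18 were not called. Over all genes tested, 27.1% were called higher and 31.3% lower in that comparison. Their median log2 difference was -0.33, and the lowest was -5.41, for Tgfb1i1.

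The promoter of Pycard is shown because the transcript was close to absent from one cell type, together with that of Nlrp1b, the only one of the 10 genes called lower in BMDM with TMM scaling. Both hold the letters GAGGAAGT, searched here as a motif of PU.1, the product of Spi1 and a lineage factor of macrophages, on either strand. Of all 32817 RefSeq windows of 300 bases, from 250 bases before to 50 after a start, 3.20% hold these letters. Among the 9 genes with an entry, 2 do, in 2 of their 12 windows. The bases before the start are printed 5′ to 3′ on the gene's strand, for Pycard chr7:127993868-127994117 (minus strand) and for Nlrp1b chr11:71230734-71230983 (minus strand), in RefSeq's GRCm38.p6, with the match in capitals.
Pycard: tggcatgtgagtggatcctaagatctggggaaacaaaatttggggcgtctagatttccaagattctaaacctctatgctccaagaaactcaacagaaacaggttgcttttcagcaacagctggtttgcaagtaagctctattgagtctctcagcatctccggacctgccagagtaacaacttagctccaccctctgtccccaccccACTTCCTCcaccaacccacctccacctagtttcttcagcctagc
Nlrp1b: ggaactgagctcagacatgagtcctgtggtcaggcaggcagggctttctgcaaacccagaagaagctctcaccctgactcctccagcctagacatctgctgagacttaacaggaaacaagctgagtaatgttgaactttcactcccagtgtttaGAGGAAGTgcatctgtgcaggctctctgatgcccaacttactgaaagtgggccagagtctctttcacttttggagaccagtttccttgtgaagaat
A match is a description of the letters and does not show that the factor binds there. Whether PU.1 had a part in the level of either gene was not tested. Spi1 itself was counted at 237 CPM in RAW at rest, against 241 and 256 CPM in resting BMDM, and was not called there. With LPS it was at 375 CPM in RAW against 465 and 485 CPM in BMDM, and was called lower in RAW (log2 -0.35, SE 0.06, edgeR adjusted p = 2.68e-06), although with library size scaling the order turned, at 429 CPM in RAW against 386 and 402 CPM.

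Casp4 had the largest rise of the 10 genes in BMDM. It stood at 20.2 and 21.3 CPM in the resting libraries and at 235 and 230.4 CPM in the LPS libraries. The rise was 11.2-fold (log2 3.48, SE 0.05, edgeR adjusted p = 5.91e-30). In hMPDM it stood at 37.0 CPM at rest and 291 CPM with LPS, a ratio of 7.87 (counting interval 7.15 to 8.67). In RAW it stood at 21.7 CPM at rest, between both BMDM values and the hMPDM value, and at 52.6 CPM with LPS, a ratio of 2.42 (1.88 to 3.15). The LPS libraries of BMDM and hMPDM thus exceeded that of RAW by a wide margin while the resting libraries of BMDM and RAW were close.

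Casp1, the caspase of the canonical inflammasomes and the direct neighbour of Casp4 on chromosome 9, rose 3.42-fold in BMDM (log2 1.77, SE 0.05, edgeR adjusted p = 1.73e-24). Its BMDM levels were 71.5 and 73.3 CPM in the resting libraries and 256 and 242 CPM in the LPS libraries. In hMPDM it stood at 79.3 CPM at rest and 339 CPM with LPS, a ratio of 4.27 (3.97 to 4.60). In RAW it stood at 94.7 and 100.2 CPM, a ratio of 1.06 whose interval (0.920 to 1.22) includes 1. RAW at rest had the highest resting level of Casp1 among the cell types. Gsdmd, the pore former, had 61.9 and 55.8 CPM in resting BMDM and 117 and 128 CPM with LPS. That is a 2.11-fold rise (log2 1.08, SE 0.06, edgeR adjusted p = 1.68e-16). In hMPDM it stood at 57.6 and 140.3 CPM, a ratio of 2.43 (2.20 to 2.69), and in RAW at 61.5 and 56.5 CPM, a ratio of 0.919 (0.768 to 1.10). The 4 resting libraries and RAW after LPS all lay between 55.8 and 61.9 CPM, and the LPS libraries of BMDM and hMPDM were above them.

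The promoters of Casp4 and Nlrp3 are shown because these genes had the largest rises. They were also the only ones among the 9 genes with an entry to hold a motif of NF-kB (GGG, any 2 bases, TT, any base, CC), searched on both strands. NF-kB is the transcription factor that TLR4 signalling activates. Of the 32817 windows, 4.80% hold this motif, and 3 of the 12 windows of the 9 genes do. Whether NF-kB binds at these matches or had a part in the rises was not tested. The bases before the annotated start are printed 5′ to 3′ for Casp4 at chr9:5308599-5308827 (plus strand) and for Nlrp3 at chr11:59541319-59541567 (plus strand), again in GRCm38.p6 from RefSeq, with the matches in capitals.
Casp4: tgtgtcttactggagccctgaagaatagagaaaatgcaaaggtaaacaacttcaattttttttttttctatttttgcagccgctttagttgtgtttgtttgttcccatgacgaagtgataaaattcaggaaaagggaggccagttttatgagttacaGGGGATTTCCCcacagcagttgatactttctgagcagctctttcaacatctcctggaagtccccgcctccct
Nlrp3: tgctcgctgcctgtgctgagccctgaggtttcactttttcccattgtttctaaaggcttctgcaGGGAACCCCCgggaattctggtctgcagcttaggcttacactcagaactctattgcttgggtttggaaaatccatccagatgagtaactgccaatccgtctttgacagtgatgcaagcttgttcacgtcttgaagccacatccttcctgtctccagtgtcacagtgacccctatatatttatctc
In Casp4 the capitals hold 2 overlapping matches on the printed strand, and in Nlrp3 the match is on the opposite strand. A further match in Casp4 lies past the printed bases. The ISRE (GAAA, any 2 bases, GAAA) and GAS (TTCNNNGAA), motifs of factors that interferons activate, searched on both strands, were in none of the windows of the 9 genes, against 3.43% and 8.29% of all windows. Gsdmd has no entry.

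**Figure D2:**
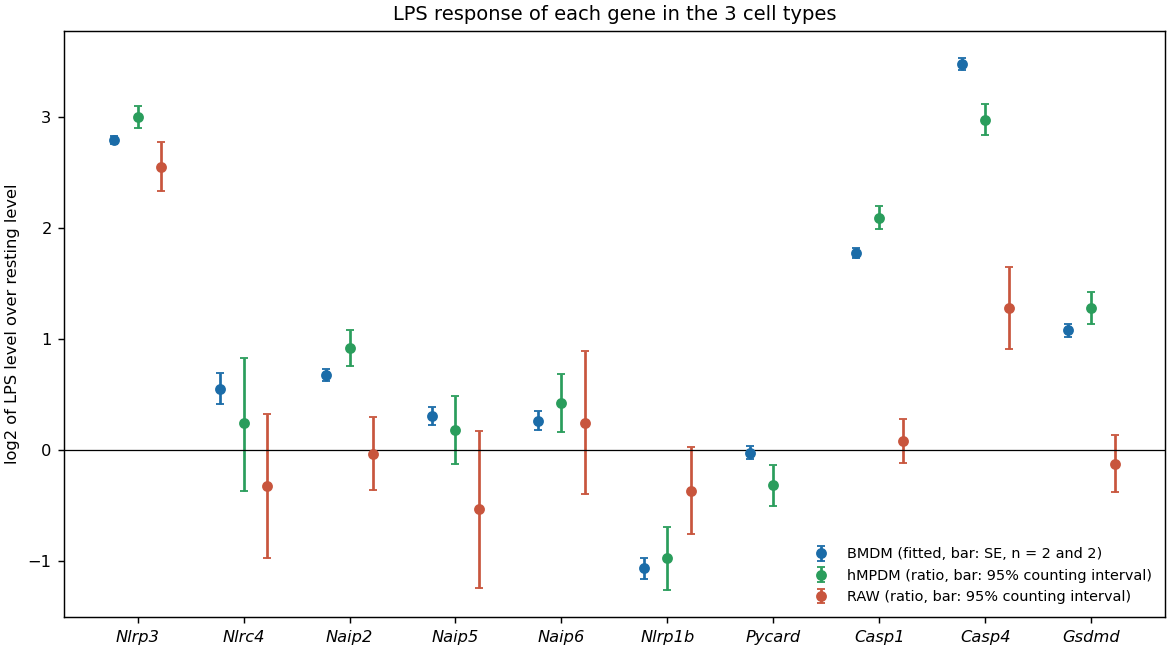
log2 of the LPS level over the resting level of each gene, with the fitted value and its SE for BMDM, and the ratio of single libraries with its 95% counting interval for hMPDM and RAW (RAW Pycard, with 1 count in all, is not drawn). RAW lies near BMDM and hMPDM for Nlrp3, and far below both for Casp1, Casp4 and Gsdmd.

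In the untested responses, a size rule counted genes with a ratio of at least 4-fold whose higher library reached 5 CPM. In hMPDM, 3 of the 10 genes passed it, all higher (Nlrp3, Casp4 and Casp1), against 3.52% of all genes higher and 0.907% lower. Casp1 falls short of it with library size scaling, where its log2 ratio was 1.71. In RAW, 1 of 10 passed, Nlrp3, against 0.626% of all genes higher and 0.00803% lower. Between the BMDM replicates of a state, 0 of the 10 genes passed, and over all genes 0.00803% did so at rest and 0 after LPS.

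The next comparison asks how the resting and stimulated levels of these genes in hMPDM differ from those in BMDM. It sets 1 hMPDM library against 2 BMDM libraries, and the spread of the single library is taken to equal that of the BMDM pairs. At rest, hMPDM had more Casp4 (log2 0.83, SE 0.08), Nlrp1b (0.52, SE 0.08) and Pycard (0.50, SE 0.06) and less Nlrp3 (-0.78, SE 0.06) and Naip2 (-0.24, SE 0.07). These 5 of 10 calls compare with 38.2% of all genes called in either direction. With the DESeq2 test the calls of Nlrp1b (adjusted p = 0.22), Pycard (0.0653) and Naip2 (0.609) ended. After LPS, 3 of 10 were higher and 1 lower, against 12.5% and 12.5% of all genes. The higher ones were Nlrp1b (log2 0.61, SE 0.17), Casp1 (0.45, SE 0.06) and Casp4 (0.32, SE 0.06), and the lower one was Nlrp3 (-0.57, SE 0.05). Of these 4, the calls of Nlrp1b and Casp4 ended with the DESeq2 test, and those of Nlrp1b, Casp1 and Casp4 ended with a set coefficient of variation of 10%. A further alternative subtracted 10.8% of the BMDM LPS counts, as scaled levels, from the hMPDM LPS library. The values were then 0.67 for Nlrp1b, 0.49 for Casp1, 0.35 for Casp4 and -0.66 for Nlrp3. Such a subtraction moves hMPDM away from BMDM by its construction, so it is no check on these calls.

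The LPS responses of hMPDM and BMDM differed for 2 of the 10 genes, 1 in each direction, against 3.96% of all genes higher and 3.89% lower. That of Casp1 was larger in hMPDM by 0.32 on the log2 scale (SE 0.08, edgeR adjusted p = 0.011). That of Casp4 was smaller by a difference of -0.51 (SE 0.10, edgeR adjusted p = 0.000872). The resting level of Casp4 was higher in hMPDM, and the level after LPS was also higher there. Both differences of response ended as calls with the DESeq2 test (adjusted p = 0.534 and 0.18) and with a set coefficient of variation of 10%. For Nlrp3, whose level was lower in hMPDM in both states, the responses differed by 0.21 (SE 0.08, edgeR adjusted p = 0.106), which did not pass the test.

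RAW differed from BMDM in more of these genes. At rest, 2 of 10 were higher and 5 lower, against 27.1% and 31.3% of all genes. Beside Pycard, the lower ones were Naip6 (log2 -1.37, SE 0.22), Nlrp3 (-1.27, SE 0.10), Naip5 (-1.11, SE 0.21) and Naip2 (-0.72, SE 0.12), and the higher ones were Nlrc4 (0.73, SE 0.25) and Casp1 (0.39, SE 0.09). Thus the 3 NAIP receptors were lower while their partner Nlrc4 was higher. The Nlrc4 call rests on 43 counts in RAW and ended with the DESeq2 test, and that of Casp1 ended with a set coefficient of variation of 10%. Nlrp1b, Casp4 and Gsdmd were not called, although with library size scaling Gsdmd was called higher (0.27). The median over the 10 genes was -0.48, and over all genes -0.06.

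After LPS, 8 of 10 were lower in RAW than in BMDM and 1 was higher, against 36.4% and 29.8% of all genes. Casp4 was lower by a log2 difference of -2.14 (SE 0.08, 4.42-fold), Naip5 by -1.95 (SE 0.21), Nlrp3 by -1.51 (SE 0.05), Naip2 by -1.43 (SE 0.11), Naip6 by -1.39 (SE 0.19), Casp1 by -1.31 (SE 0.07) and Gsdmd by -1.13 (SE 0.10). Pycard, the eighth, is given above by its bound. The exception was Nlrp1b, at 0.46 (SE 0.17, edgeR adjusted p = 0.0218), a call that ended with the DESeq2 test, with a set coefficient of variation of 10% and without the first BMDM LPS library. Nlrc4 was not called (-0.15, SE 0.24). The median was -1.41 over the 10 genes and -0.09 over all genes. These differences and those of hMPDM use the same BMDM libraries. In the untested ratio of hMPDM to RAW after LPS, 2 of 10 passed the size rule, Pycard and Casp4 (5.52, counting interval 4.82 to 6.36), against 6.44% of all genes higher and 3.56% lower.

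**Figure D3:**
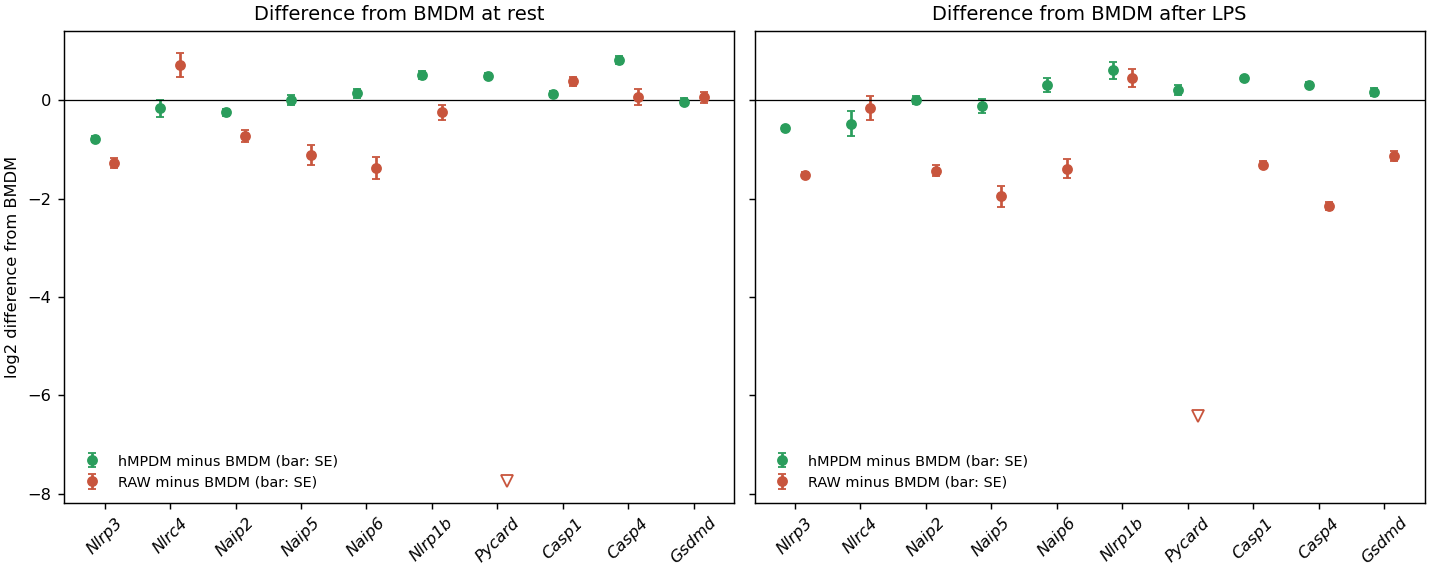
log2 difference of hMPDM and RAW from BMDM for each gene at rest (left) and after LPS (right), with SE bars, and a triangle for RAW Pycard, which marks the count ratio at rest and the bound against 3 counts after LPS. The RAW values for Casp1, Casp4 and Gsdmd lie at or above 0 at rest and below -1 after LPS, while those of Nlrp3 and the NAIPs are below 0 in both states.

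The LPS response itself differed between RAW and BMDM for 5 of 10 genes, 1 higher and 4 lower, against 10.0% and 12.7% of all genes. Both caspases and the gasdermin were among the lower ones: Casp4 differed by -2.20 (SE 0.21, edgeR adjusted p = 1.35e-09), Casp1 by -1.69 (SE 0.12, edgeR adjusted p = 2.29e-12) and Gsdmd by -1.20 (SE 0.16, edgeR adjusted p = 5.23e-07). None of these 3 lost its call in any of the alternatives run. Naip2 differed by -0.71 (SE 0.18, edgeR adjusted p = 0.0034), a call that ended with library size scaling, the DESeq2 test and a set coefficient of variation of 10%. Nlrp1b differed by 0.70 (SE 0.23, edgeR adjusted p = 0.0238), and its call ended with the latter 2 alternatives. The response of Nlrp3 differed by -0.24 (SE 0.12, edgeR adjusted p = 0.182), which did not pass. Nlrp3 was therefore lower in RAW in both states, and a difference in its response was not detected, whereas Casp1, Casp4 and Gsdmd differed in the response.

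A fit with a single LPS term over the 3 cell types, in which BMDM weighs most, called 6 of 10 genes higher and 1 lower, against 25.0% and 24.2% of all genes. The log2 responses were 2.94 for Casp4, 2.79 for Nlrp3, 1.48 for Casp1, 0.87 for Gsdmd, 0.61 for Naip2, 0.31 for Naip6 and -0.92 for Nlrp1b. A single term does not show that each cell type responded. In RAW alone, the untested ratios of Nlrp3 and Casp4 had counting intervals above 1. Those of Casp1, Gsdmd, Naip2, Naip6 and Nlrp1b had intervals that include 1. Naip6 turned to -0.021 with library size scaling. The call of Gsdmd ended without either resting BMDM library or the second LPS library, and that of Naip6 without the second resting or the first LPS library. With library size scaling Pycard was called lower in this fit (-0.50).

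Levels of different genes were compared per length, as TPM, transcript levels scaled to a fixed sum per library, from the counts and the exonic lengths of the table. In resting BMDM, Casp1 led with 159 TPM, followed by Pycard (131 TPM), Gsdmd (109 TPM), Nlrp3 (100.1 TPM) and Naip2 (41.8 TPM). Nlrp1b and Casp4 followed at 18.6 and 18.4 TPM, with replicate ranges that overlap, and then Naip5 (14.0 TPM), Naip6 (11.8 TPM) and Nlrc4 (5.79 TPM). After LPS, Nlrp3 led with 524 TPM, ahead of Casp1 (412 TPM), Gsdmd (171 TPM), Casp4 (156 TPM) and Pycard (97.8 TPM). Thus Pycard went from the second place to the fifth, and Casp4 from the seventh to the fourth. Nlrc4 and Nlrp1b were last at 6.53 and 6.46 TPM, with overlapping ranges. In hMPDM, Pycard (193 TPM) and Casp1 (181 TPM) led at rest, and Casp1 (574 TPM) led Nlrp3 (362 TPM) after LPS. In RAW, Casp1 led at rest with 240.5 TPM and Nlrp3 after LPS with 258 TPM. Resting RAW had Nlrc4 (11.1 TPM) above Naip5 (7.45 TPM) and Naip6 (5.24 TPM), the reverse of BMDM and hMPDM. These RAW values rest on 43, 39 and 36 counts.

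**Figure D4:**
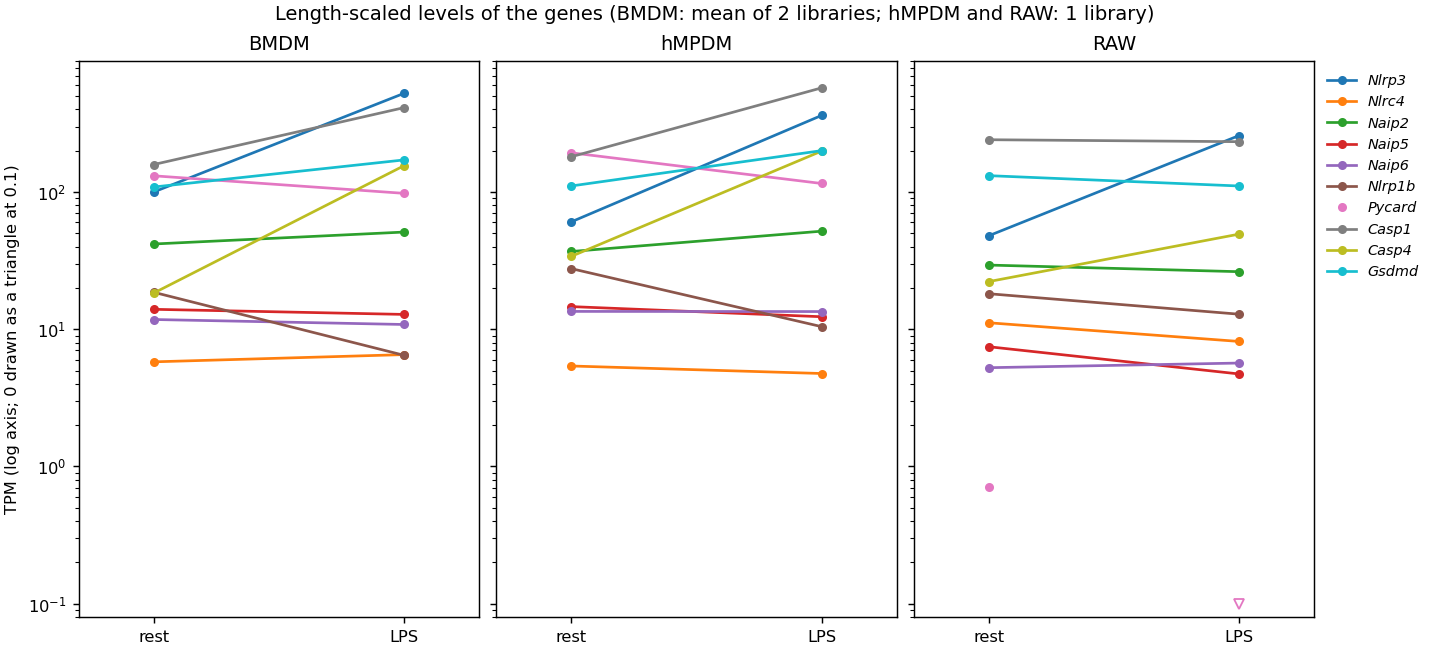
Length-scaled level (TPM, log axis) of each gene at rest and after LPS in BMDM (mean of 2 libraries), hMPDM and RAW (1 library each), with a triangle at 0.1 for the count of 0. Casp4 is below Naip2 at rest and above it after LPS in all 3 cell types, and Pycard is below every other gene in RAW.

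Across the 8 libraries, the log levels of Casp1, Casp4 and Gsdmd varied together. Pearson r was 0.97 for Casp1 with Casp4 and with Gsdmd, and 0.94 for Casp4 with Gsdmd. Nlrp3 had r = 0.91 with Casp4, and Nlrp1b had r = -0.84 with Nlrp3. Pycard, Naip5 and Naip6, which were lower in RAW in both states, had r between 0.93 and 0.97 with each other. Naip2 and Nlrp3 were also lower in RAW in both states. Their r with these genes lay between 0.78 and 0.89 for Naip2 and between 0.27 and 0.51 for Nlrp3. These values are descriptions, because the 8 libraries share cell types and LPS states. The genes most like each by the same measure, among all genes tested, are named by rule, 3 for each. For Nlrp3 they were Tnfrsf1b (r = 0.996), Wdr1 (0.994) and Zc3h12a (0.993), and for Pycard Xist (0.999), Tspan32 (0.999) and Nedd4l (0.999). For Casp4 they were Gch1 (0.996), Ogfr (0.996) and Oas1b (0.995), for Casp1 Usp25 (0.999), Slc25a22 (0.998) and Gm11131 (0.996), and for Gsdmd Fbn1 (0.997), Ythdf1 (0.995) and 1110038F14Rik (0.994). Naip2 was closest to Yipf1 (0.996), Maml2 (0.996) and Sh3bp5 (0.995), Naip5 to H2-Ab1 (0.994), C1qa (0.993) and 2900097C17Rik (0.993), and Naip6 to Tprgl (0.995), Ms4a7 (0.993) and Aoah (0.993). The values were lower for Nlrc4, with Ano6 (0.974), Usp15 (0.974) and Sec22a (0.965), and for Nlrp1b, with Rchy1 (0.990), Ttc14 (0.978) and Mblac1 (0.975).

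To place the 10 genes in their pathway, 44 further genes in 8 roles were read from the same fit. The table held 43 of them, the other one is not analysed here, and 38 had enough counts. In BMDM after LPS, 25 of the 38 were higher, 10 lower and 3 were not called, with a median of 0.77. Over all genes the shares were 31.7% and 31.1% and the median -0.02. With library size scaling 21 were higher and 16 lower. The 5 without enough counts (Naip1, Nlrp6, Nlrp12, Gsdma and Gsdmc) reached at most 0.484 CPM in any library. By rule, the member of each role with the largest rise and the one with the largest fall are named with values, and further names were chosen after their values were seen.

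All 5 genes of the cytokine substrates and antagonists rose, including the antagonists Il1rn (log2 2.09, SE 0.04) and Il18bp (2.13, SE 0.09). Il1b, the main caspase-1 substrate, had the largest rise, from 2.15 and 1.45 CPM to 555 and 553 CPM (log2 8.28, SE 0.08). The 3 tested GTPases that expose LPS to caspase-11 rose, led by Gbp2 from 8.37 and 8.91 CPM to 986 and 943 CPM (log2 6.79, SE 0.06). Of 4 transcription factors, 3 rose, led by Irf1 (5.11, SE 0.05), which drives interferon-response genes, and Irf8 was not called. Among the other sensors, Mefv, which encodes pyrin, rose from 0.956 and 1.02 CPM to 23.9 and 22.1 CPM (log2 4.50, SE 0.17) and Aim2 also rose. Nlrp1a fell, and so did Nlrp10 (-0.76, SE 0.25), whose call ended with the DESeq2 test and without the second LPS library. The sensor regulators were mixed, with 4 higher, 3 lower and 2 not called, from Trim30a (2.71, SE 0.05) to P2rx7 (-0.45, SE 0.05), the ATP-gated channel upstream of NLRP3.

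Of the other caspases and their inhibitors, 5 were higher and 2 lower. Casp12 had the largest rise in this role (4.14, SE 0.55), from 2 and 2 counts to 17 and 23 counts, and Casp9, the apoptotic initiator, the largest fall (-0.69, SE 0.06). Ninj1, whose product ruptures the membrane after the pores have formed, rose 0.65 on the log2 scale (SE 0.04) from 306 and 304 CPM, whereas Gsdme fell (-0.89, SE 0.09). The necroptosis genes divided into Zbp1 (4.73, SE 0.11) and Mlkl, which rose, and Ripk1 (-0.25, SE 0.05) and Ripk3, which fell. The call of Ripk1 ended with the DESeq2 test and with a set coefficient of variation of 10%.

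**Figure D5:**
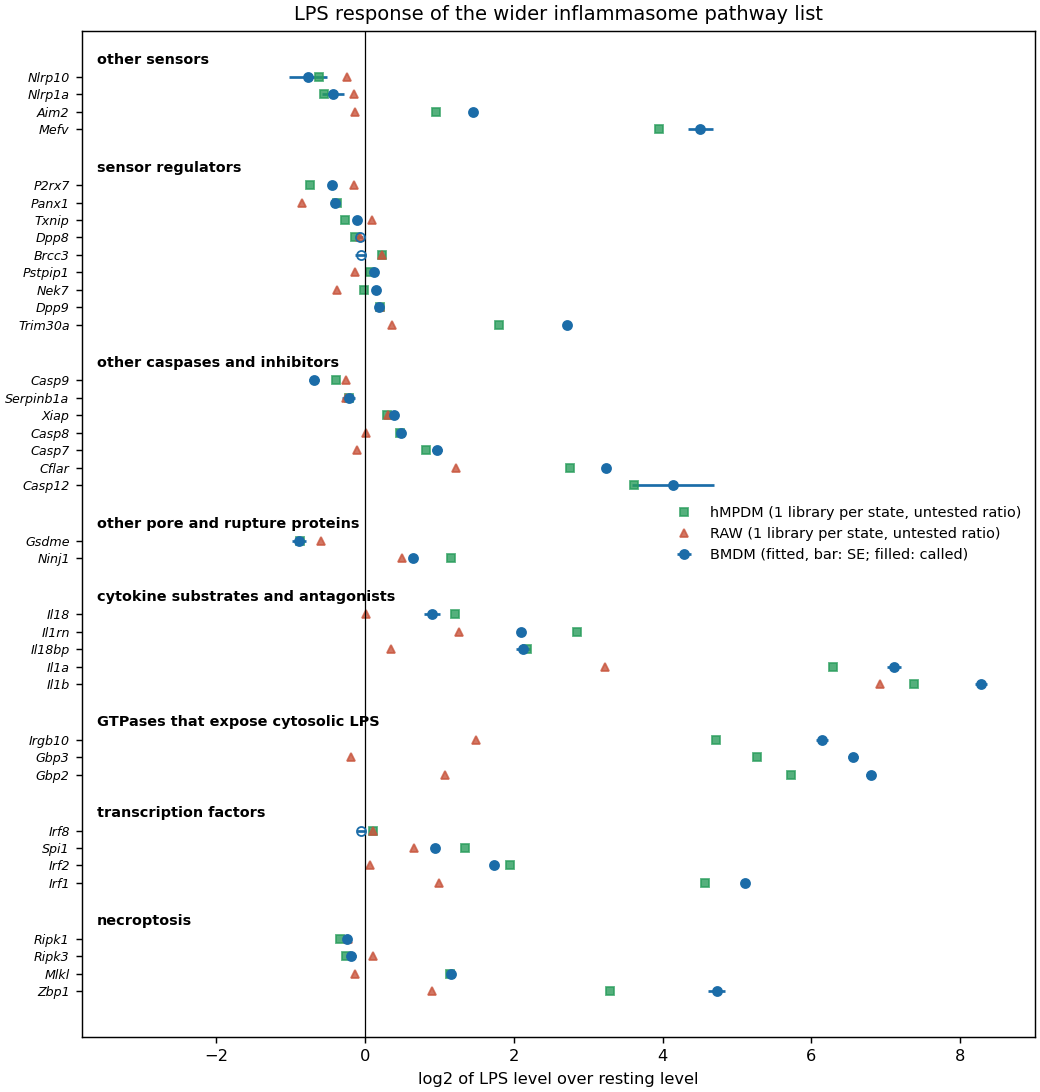
log2 of the LPS level over the resting level for the 38 tested genes of the wider list by role, with fitted BMDM values (SE bars, filled where called) and untested ratios for hMPDM and RAW (none drawn where both RAW libraries together held under 4 counts). The BMDM values run from -0.89 (Gsdme) to 8.28 (Il1b), and the RAW values of Gbp2 and Irf1 stay well below those of both other cell types.

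The wider list was mostly lower in RAW after LPS. In that state, 29 of the 38 genes were lower than in BMDM and 4 were higher (Nlrp10, Txnip, Casp9 and Il1rn), against 36.4% and 29.8% of all genes. The median was -1.25. At rest 20 were lower and 5 higher, against 31.3% and 27.1%. The responses differed for 15 lower and 1 higher, against 12.7% and 10.0%. The higher one was Casp9 (0.43, SE 0.14), whose call ended with the DESeq2 test and with a set coefficient of variation of 10%. Gbp2 reached 7.92 CPM in RAW after LPS, and its difference from BMDM in that state was -6.92 (SE 0.11). Irf1 reached 53.3 CPM (-4.59, SE 0.07), Il1b 118 CPM (-2.23, SE 0.07) and Zbp1 4.07 CPM (-3.77, SE 0.20). Mefv had 2 counts in RAW after LPS against 437 in BMDM, a ratio of 53.0 (counting interval 14.6 to 439), and Casp12 had 0 against 40, which makes it at least 3.23-fold lower. Both genes had 0 counts in RAW at rest. P2rx7 was not called after LPS (-0.18), and with library size scaling it turned to 0.29 and was called.

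In hMPDM, the same list had 20 genes higher and 9 lower than BMDM at rest, against 38.2% of all genes called in either direction. After LPS it had 13 higher and 10 lower, against 12.5% and 12.5%. Gbp2 was higher by 1.24 (SE 0.12) at rest and by 0.17 (SE 0.04) after LPS, the latter a call that ended with the DESeq2 test and with a set coefficient of variation of 10%. Zbp1 was higher by 2.69 at rest and 1.27 after LPS. The responses differed for 8 genes lower, among them the 3 GTPases, and 3 higher (Ninj1, Il1rn and Spi1), against 3.89% and 3.96% of all genes.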

How the data were processed

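Polyadenylated RNA of 8 libraries was measured, and groups follow the sample labels. The authors deposited raw counts per gene, not normalized. Cutadapt, STAR, featureCounts, SAMtools and bedtools, without versions, and the mm10 build are named in the submitters' processing notes. How reads matching several genes, or strand, were handled is not given in the sources used here. Of the table's 10 value columns, 8 matched a sample by name and the other 2 were not used. Of 43346 gene identifiers, 42462 matched a symbol, 884 did not, and 20 shared one with a more deeply counted identifier. Irgb10 was found as Gm12250, through a RefSeq synonym.

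The counts were analysed in edgeR 4.0.16 (R 4.3.3), with filterByExpr leaving 12461 genes, TMM scaling and a quasi-likelihood fit of 1 coefficient per group over the 8 libraries. Its 2 residual degrees of freedom come from the BMDM pairs, so hMPDM and RAW borrow the spread of BMDM. With so few, edgeR draws the spread of each gene towards that of all genes tested. The p-values thus do not measure the replicate spread of a single gene alone. A further fit had cell type and LPS as terms (4 residual degrees of freedom). Adjusted p-values are Benjamini-Hochberg values over all 12461 genes, called at 0.05. The SE is derived from the F statistic, and it may understate counting error where a large fold rests on a handful of reads. Groups with 0 counts were set against 3 counts, and groups with 1 to 3 counts got an exact 95% counting interval. Such intervals cover counting error only, as reads were not traced to single molecules. Responses of hMPDM and RAW, and hMPDM against RAW, set 1 library against 1 and have no test. For them, log2 ratios used a prior count of 2, and the size rule took those of at least 2 in size with at least 5 CPM. TPM used the table's exonic lengths, and shared windows used GENCODE M21 transcripts. RefSeq promoters matched 9 of the 10 genes.

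Alternatives were library size or DESeq2 size factor scaling, no filter, a prior count of 0.5, the DESeq2 1.42.0 test, a set coefficient of variation of 10%, each BMDM library left out, the replicate block, the 4 BMDM libraries alone, and the BMDM share subtracted from the hMPDM LPS library, the last chosen from earlier values of these data. The edgeR fit was checked on simulated data for the BMDM LPS response only, and the other comparisons and fits were not checked in this way. The 10 genes, the 44 further genes and the marker lists were chosen with earlier results of these data known. Further genes are named by rule as the largest called rise and fall of each role in BMDM. A further gene of the planned list is not reported here.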

Additional observations from a re-analysis of the deposited data

Results flagged for a closer look

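The LPS response of 7 gene and cell type pairs differed from that of BMDM by the test of the difference itself (edgeR's quasi-likelihood test, Benjamini-Hochberg adjusted). The differences are on the log2 scale, and the responses or levels beside them are in the units named.

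For hMPDM, Casp1 differed by 0.32 (adjusted p = 0.011) and Casp4 by -0.51 (adjusted p = 0.000872). Both rose in BMDM, by 1.77 and 3.48 on the log2 scale, and in hMPDM the untested ratios were 4.27-fold and 7.87-fold. Casp4 thus had the larger resting level and the smaller fold in hMPDM.

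For RAW, Casp4 differed by -2.20 (adjusted p = 1.35e-09), Casp1 by -1.69 (adjusted p = 2.29e-12) and Gsdmd by -1.20 (adjusted p = 5.23e-07). The RAW ratios were 2.42, 1.06 and 0.919, against rises of 11.2-fold, 3.42-fold and 2.11-fold in BMDM. Naip2 differed by -0.71 (adjusted p = 0.0034), with 37.4 and 36.6 CPM in the 2 RAW libraries. Nlrp1b differed by 0.70 (adjusted p = 0.0238), since its level was 0.775 of the resting one in RAW and fell 2.09-fold in BMDM. Each of these differences rests on 1 library per state outside BMDM.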

How the results depend on the processing

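Each comparison was recomputed under the alternatives. With library size scaling, Naip5 (-0.060) and Naip6 (-0.10) turned in the BMDM response, Naip6 turned in the common fit (-0.021), and P2rx7 turned in RAW minus BMDM after LPS (0.29). Among the 10 genes, hMPDM minus BMDM had 5 calls at rest and 4 after LPS, and 2 and 2 with the DESeq2 test, and after LPS 1 with a set coefficient of variation of 10%. The response difference of hMPDM had 2 calls (5 at an unadjusted p under 0.05), 0 with DESeq2 (2 unadjusted) and 0 with the set coefficient (0 unadjusted). That of RAW had 5 calls, and 3 under either. Over the 10 genes, leaving out 1 BMDM library at a time gave 8 to 9 calls in the BMDM response, 5 to 5 and 4 to 5 in hMPDM minus BMDM at rest and after LPS, 2 to 3 in the hMPDM response difference, 7 to 7 and 8 to 9 in RAW minus BMDM, 5 to 6 in the RAW response difference and 5 to 6 in the common fit. With 1 library left in an arm, it is assumed to vary like the others.

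Over all genes, 7815 calls in the BMDM response became 4159 with DESeq2 and 5161 with the set coefficient. The 4766 calls of hMPDM minus BMDM at rest became 1365 and 1714, the 3121 after LPS became 1246 and 1235, and the 979 response differences became 264 and 123. RAW minus BMDM at rest went from 7282 to 4463 with DESeq2, and its response differences from 2832 to 1374 and 1211. Library size scaling moved the split of higher and lower calls from 3945 and 3870 to 1997 and 7616 in the BMDM response, from 3381 and 3901 to 4485 and 2868 in RAW minus BMDM at rest, from 3715 and 4534 to 6105 and 2813 after LPS, from 1246 and 1586 to 3052 and 987 in the RAW response difference, and from 3110 and 3011 to 1623 and 6219 in the common fit.

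Of the 44 further genes, 35 were called in BMDM, 37 with library size scaling, 25 with DESeq2, 27 with the set coefficient and 29 to 32 without 1 library. The differences of BMDM replicate 2 from replicate 1 were not correlated between the states (correlation of deviations -0.0346). With 1 such difference per state, this cannot tell whether the replicate numbers pair the libraries. With the replicate block, 9 of the 10 genes were called in the BMDM response, 5 and 4 in hMPDM minus BMDM at rest and after LPS, 2 in its response difference, 7 and 9 in RAW minus BMDM, 5 in its response difference and 7 in the common fit, with 7751 calls over all genes in the BMDM response. The calls of Ninj1 and Gbp2 in hMPDM minus BMDM after LPS ended under it. Single libraries of hMPDM and RAW, and few counts of Pycard and Nlrc4 in RAW, limit these values.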
